A study of Mus musculus with 285 samples.

Results

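Muscle of 285 F2 mice was divided by the level of Pttg1, and every other measured gene was compared between the 85 mice with low Pttg1 and the remaining 200. The low mice were chosen by their deposited Pttg1 value alone, -0.301 or lower on the deposited scale, which is a mouse-to-pool ratio of 0.5 read as log10. The Pttg1 values are therefore given as a description and were not tested. The comparison asks whether anything beyond genes linked to Pttg1, those near it on its chromosome, follows the split.

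The F2 mice, female and male, descend from C57BL/6J and C3H/HeJ, crossed in both directions, through intercrossed F1 parents. Low mice and rest shared the same regime, namely chow (4% fat) up to an age of 8 weeks, then 12 weeks on a Western diet in which fat made up 42% and cholesterol 0.15%, and death at 20 weeks after a 12 hour fast. RNA of each mouse, labelled with Cy3, was hybridised against a Cy5-labelled pool made from all the mice, and values are log2 ratios of mouse over pool unless the deposited scale is named. The labels name neither the muscle taken nor the sex, genotype, cross direction or litter of a mouse, so p-values treat the mice as independent. Because each value is a ratio to a pool of the same tissue, the presence of muscle markers cannot be read from it.

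Pttg1 encodes securin, the protein that binds and inhibits the protease separase until the anaphase promoting complex marks securin for destruction. Separase then cuts the cohesin rings that hold sister chromatids together, and the chromosomes part. Mature muscle fibres do not divide, and the gene is known mainly from dividing cells and tumours. In an F2 intercross each chromosome is a patchwork of the grandparental strains, and genes close together on it tend to be inherited together. A variant that alters the level of a nearby gene then shows as a shift shared by all mice of a genotype.

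The promoters of Pttg1 and of Mtif2 and Pnpt1 are shown because these are the gene that chose the mice and the pair of named genes with the smallest p in the comparison. They are the 250 bases before each start in RefSeq of GRCm38.p6, a build of C57BL/6J, at chr11:43425982-43426231 on the minus strand for Pttg1, chr11:29526147-29526396 on the plus strand for Mtif2 and chr11:29130494-29130743 on the plus strand for Pnpt1. C3H/HeJ sequence was not used here. Capitals mark matches, on either strand, to CCAAT (the CCAAT box), to TTTGAA (the core of the element named CHR, known from cell cycle promoters) and to GGGCGG (the GC box).
Pttg1: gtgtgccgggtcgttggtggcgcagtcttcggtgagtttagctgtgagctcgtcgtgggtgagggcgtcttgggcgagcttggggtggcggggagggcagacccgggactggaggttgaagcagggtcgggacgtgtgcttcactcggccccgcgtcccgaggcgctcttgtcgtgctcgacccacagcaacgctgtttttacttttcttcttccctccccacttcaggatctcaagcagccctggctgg
Mtif2: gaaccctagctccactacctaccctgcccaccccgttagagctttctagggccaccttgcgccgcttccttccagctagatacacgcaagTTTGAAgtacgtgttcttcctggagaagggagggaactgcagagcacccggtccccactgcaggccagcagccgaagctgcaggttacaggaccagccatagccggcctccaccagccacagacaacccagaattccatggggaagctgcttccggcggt
Pnpt1: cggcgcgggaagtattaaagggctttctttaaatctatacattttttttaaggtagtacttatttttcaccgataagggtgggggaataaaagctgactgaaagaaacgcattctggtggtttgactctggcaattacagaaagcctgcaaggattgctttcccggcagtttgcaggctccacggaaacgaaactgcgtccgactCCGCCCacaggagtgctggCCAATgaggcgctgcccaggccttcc
The Pttg1 window held none of these motifs, the Mtif2 window held 1 TTTGAA, and the Pnpt1 window held 1 CCAAT and 1 GC box. Of 32851 listed promoters cut to this window, 33.8% held CCAAT, 16.0% held TTTGAA and 32.7% held GGGCGG on either strand.

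Pttg1, measured by 1 probe, fell into separate levels. In the 85 low mice the log2 ratio had a lowest value of -3.80, a median of -3.15 and a highest value of -2.31, against -0.72, 0.05 and 1.28 in the 200 other mice. The groups left a gap of 1.59 log2 units in which no mouse lay. The members just inside the limit were mice 154, 112 and 148, with deposited values of -0.695, -0.734 and -0.758, and the mice just outside were 158, 330 and 346, with -0.216, -0.151 and -0.141. Group means were -3.15 ± 0.30 in low mice and 0.21 ± 0.45 in the rest (SD, n = 85 and 200), a difference of -3.36, so that the geometric mean of the rest was 10.3-fold that of the low mice. In bulk muscle, fewer cells that express a gene and less RNA per cell cannot be told apart. Nor was the sequence of the 1 Pttg1 probe checked against C3H/HeJ. Whether the probe binds the RNA of both strains equally was not tested, and the same holds for the other genes.

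**Figure D1:**
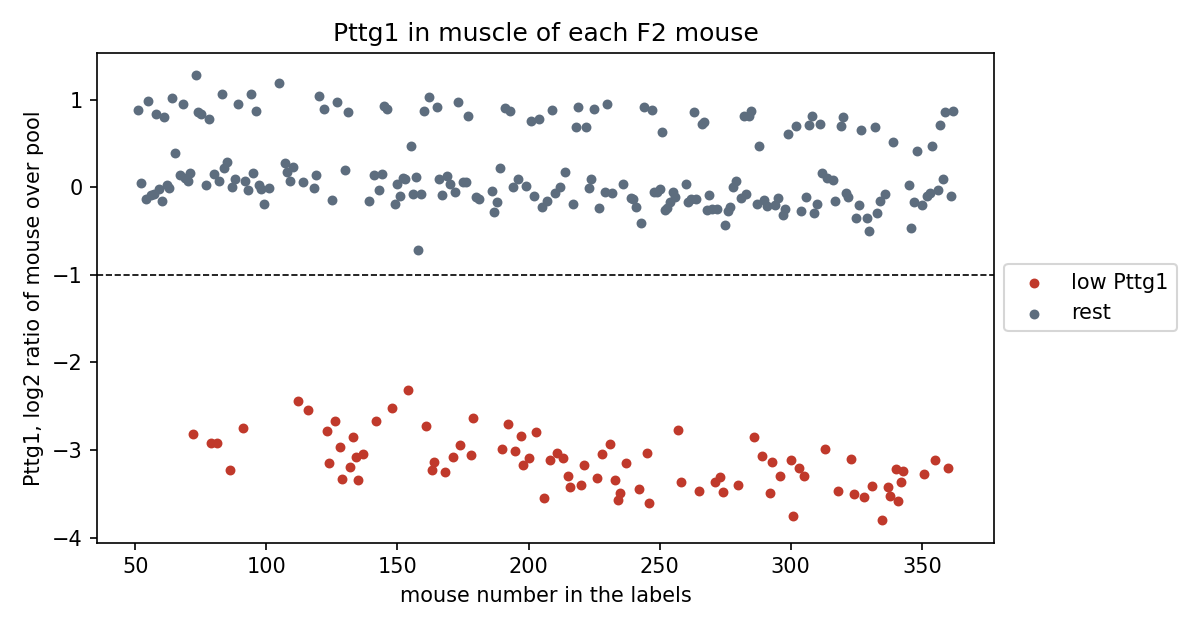
Log2 ratio of Pttg1 (mouse over pool, vertical axis) in each of the 285 mice against the mouse number in the labels (horizontal axis), with low mice in red, the rest in grey and the limit, a ratio of 0.5, dashed. Low mice lie between -3.80 and -2.31, and 2-means divides the rest into a middle run of 137 mice and a high run of 63 mice.

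The rest was divided by 2-means into 2 runs of values, which serve only as a description, since 2-means returns 2 sets for any values. The middle run ended at a log2 ratio of 0.29 and the high run began at 0.40, with an SD of 0.17 in each. These 2 runs were thus not set apart by a wide gap, unlike the low mice. On the linear scale, the mean ratio to the pool was 0.116 ± 0.0255 in the 85 low mice, 0.962 ± 0.109 in 137 middle mice and 1.78 ± 0.212 in 63 high mice (SD). These linear means hold when the deposited values are read as base 10, and read as base 2 they would be 0.520, 0.987 and 1.19. These low, middle and high sets held 29.8%, 48.1% and 22.1% of the mice, and the Wilson 95% interval of the low share ran from 24.8 to 35.4%. No genotypes were used here, so no mouse is assigned to an allele.

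The low mice were spread over the experiment with some imbalance, checked with 6 tests adjusted together. By the Y-linked genes Eif2s3y and Kdm5d, standardised, averaged and divided by 2-means, the mice formed 2 sets, called here high and low Eif2s3y. Eif2s3y ran from -1.27 to 1.84 in the 159 high mice and from -6.60 to -2.53 in the 126 low ones. Low mice made up 46 of the 126 with low Eif2s3y (36.5%) and 39 of the 159 with high Eif2s3y (24.5%), which did not pass after adjustment (Fisher's exact test, two-sided, p = 0.0367, adjusted p = 0.0734). Of the 12 arrays with an outlying spread of values, 8 were of low mice and 4 of the rest (Fisher's exact test, adjusted p = 0.0235), and the SD of values within an array was 0.322 ± 0.0884 in low mice against 0.295 ± 0.0619 in the rest (permutation test, 100000 shuffles, adjusted p = 0.0235). Mouse number averaged 225 ± 79.3 in low mice and 206 ± 93.2 in the rest, with an adjusted p of 0.130 (permutation test). The shares of low mice in lower-numbered against higher-numbered mice, and inside against outside numbers 51 to 90 and 271 to 310, had adjusted p-values of 0.519 and 0.130 (Fisher's exact test).

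Outside Pttg1, 93 of 21511 features (0.432%) differed between low mice and the rest at an adjusted p under 0.05, by limma's moderated test with Benjamini-Hochberg adjustment. Lower in low mice were 57 (0.265%), and higher were 36 (0.167%). Features are named genes and 9890 probes without a gene name. Chromosome 11, which carries Pttg1, held 45 called genes of 893 tested (5.04%), 29 lower and 16 higher in low mice. All other chromosomes together held 9 of 10026 (0.0898%), 7 lower and 2 higher. Without the 12 outlying arrays 96 features were called, 88 of them among the 93. With arrays scaled to equal SD or quantile normalised, the other chromosomes had 4 lower and 4 higher, and 4 lower and 5 higher. Every autosome other than chromosomes 2, 5, 7, 8, 9, 11, 15 and 19 had no call in this fit, nor did X (0 of 398 genes) or Y (0 of 8), while at an unadjusted p under 0.05 the other chromosomes held 611 genes (6.09%) and chromosome 11 held 124 (13.9%).

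**Figure D2:**
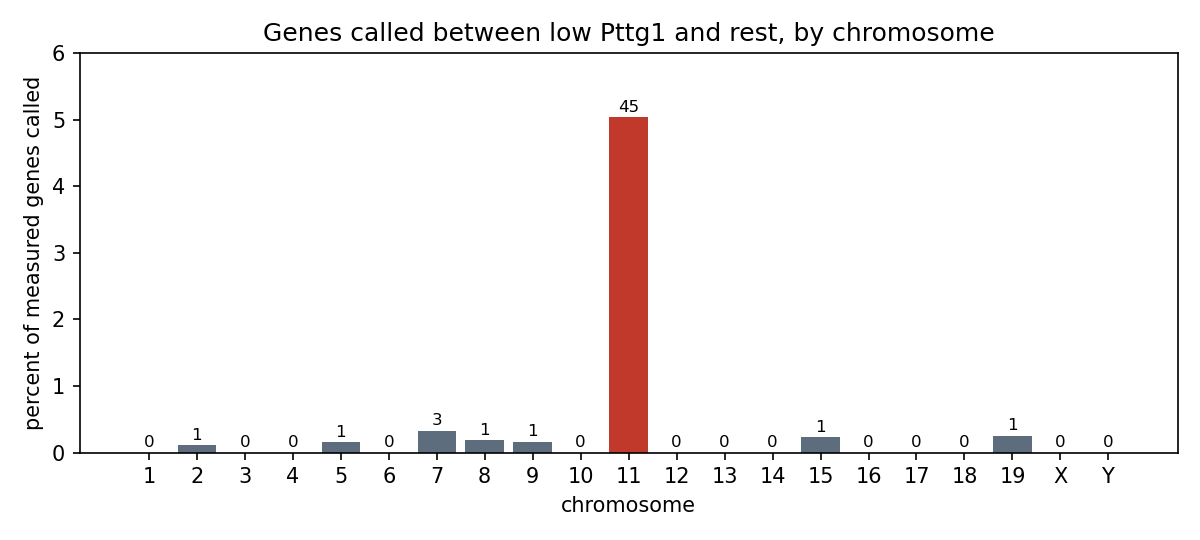
Percent of measured named genes on each mouse chromosome that were called between low Pttg1 mice and the rest (limma, adjusted p under 0.05), with the number of called genes above each bar. Chromosome 11 stands at 5.04% with 45 genes, and no other chromosome has more than 3.

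Calls on chromosome 11 lay along much of the chromosome. Counting measured genes outward from Pttg1, 124 lay on the side of lower coordinates and 769 on the side of higher ones, and called genes ran from place -86 to place 600. Within 150 places of Pttg1, 26 of 274 genes were called, and beyond that 19 of 619. On the lower side the share was 10% from place -100 to -51 and again from -50 to -1, while none of the 24 genes farther out, to place -124, was called. On the higher side it was 4% from place 1 to 50, 10% from 51 to 100, 18% from 101 to 150, 2% from 151 to 200, 10% from 201 to 300, 1% from 301 to 400, 5% from there to 500 and 0.743% beyond place 500. The size of the called differences had a median of 0.18 log2 units and ran from 0.07 to 0.98.

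**Figure D3:**
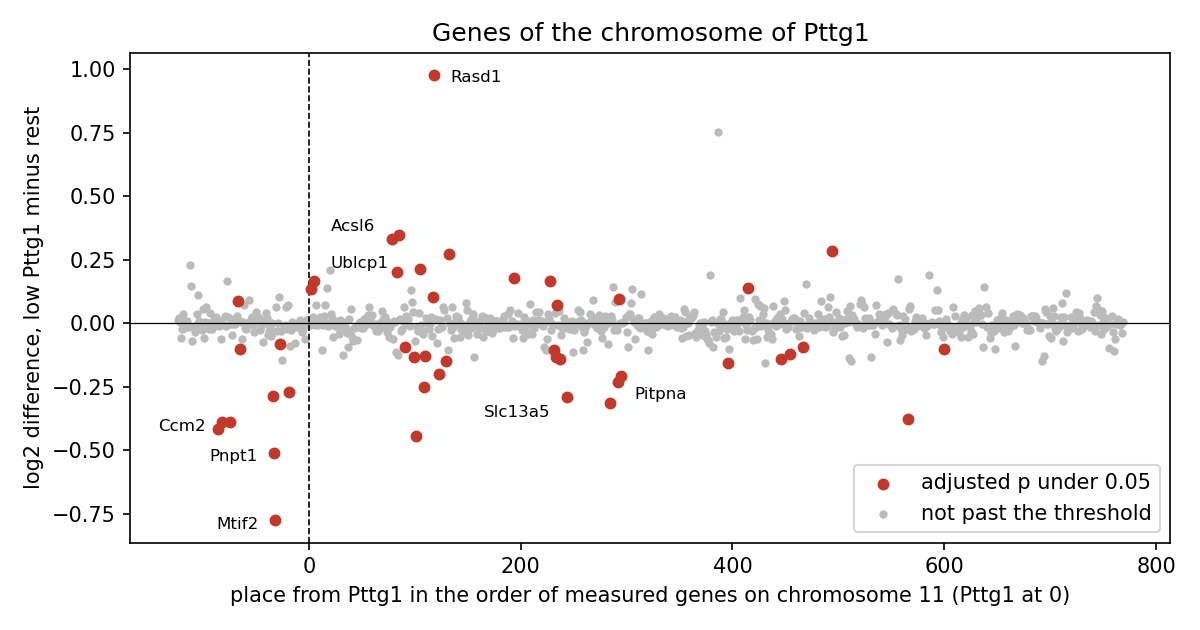
Log2 difference, low Pttg1 mice minus the rest, of each measured gene on chromosome 11 (vertical axis) against its place in gene order from Pttg1 (horizontal axis, Pttg1 at 0, no base positions), with called genes in red. Mtif2 is lowest at -0.78 and Rasd1 highest at 0.98, and red points run from place -86 to 600.

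Most of the genes immediately beside Pttg1 did not pass the test, as was true of the chromosome as a whole. Of the 10 nearest measured genes on each side, 2 of 20 were called. Beside this stand 26 of 274 within 150 places, 5.04% of chromosome 11 and 0.432% of all features. The largest difference among the other 18 was 0.07. No intensities were used, so whether these 18 genes read above background in muscle is unknown. On the lower side none of Pank3, Fbll1, Wwc1, Tenm2, Mat2b, Nudcd2, Ccng1, Gabra6, Gabrb2 and Atp10b passed. On the higher side Fabp6, Adra1b, Il12b, Ebf1, Clint1, Lsm11, Sox30 and Adam19 did not pass. Ttc1, which encodes a tetratricopeptide repeat protein and lies at place 2, had a lowest value of -0.33, a median of 0.05 and a highest value of 0.98 in low mice, against -0.54, -0.10 and 0.65 in the rest. It was higher in low mice by 0.13 ± 0.02 (SE, adjusted p = 1.20e-05, limma), with 69 of 85 low mice above the median of the rest. Ublcp1, a phosphatase that acts on the nuclear proteasome, lies at place 5 and had values of -0.27, 0.17 and 0.77 in low mice and -0.58, 0.03 and 0.51 in the rest, a difference of 0.17 ± 0.03 (SE, adjusted p = 3.34e-07, limma). Its 3 probes disagreed, with differences of -0.14, 0.50 and 0.14, so that neither its size nor its direction holds for every probe.

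The group with the smallest p-values lay on the lower-coordinate side. Mtif2, the mitochondrial translation initiation factor at place -32, had a lowest value of -1.32, a median of -0.76 and a highest value of 0.23 in low mice, against -1.09, 0.09 and 0.98 in the rest. The groups overlapped, and 81 of 85 low mice lay below the median of the rest. The difference was -0.78 ± 0.05 (SE, adjusted p = 8.60e-39, limma), a level in the rest 1.71-fold that in low mice. Pnpt1, a mitochondrial polyribonucleotide nucleotidyltransferase that processes RNA, is its neighbour at place -33. It had values of -1.0, -0.40 and 0.39 in low mice and -0.93, 0.16 and 0.86 in the rest, and fell by 0.51 ± 0.04 (SE, adjusted p = 4.43e-25, limma). Fbxw11, a substrate-recognition subunit of an SCF ubiquitin ligase at place -19, had -0.77, -0.12 and 0.26 in low mice and -0.42, 0.13 and 0.70 in the rest, and its difference was -0.27 ± 0.02 (SE, adjusted p = 1.60e-20, limma). For Pnpt1 78 and for Fbxw11 81 of the 85 low mice lay below the median of the rest, though the ranges overlapped.

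Farther out on that side, 3 more of the named genes were lower in low mice. Ccm2, a scaffold protein of the cerebral cavernous malformation complex at place -82, differed by -0.39 ± 0.04. Tns3, the focal adhesion protein tensin 3 at place -75, differed by -0.39 ± 0.05. Ogdh, a subunit of the oxoglutarate dehydrogenase complex of the citric acid cycle at place -86, differed by -0.42 ± 0.05. These 3 were lower in 76, 70 and 69 of 85 low mice than the median of the rest, and the adjusted p was at most 1.71e-10 (limma). Efemp1, an extracellular matrix protein at place -34, differed by -0.29 (adjusted p = 5.78e-05, limma) and was picked after its values were seen. It was not called in the higher-numbered mice (-0.26, adjusted p = 0.101, limma). Unlike the genes named so far on this side, Ddc at place -67 was higher in low mice. Its difference was 0.09 (adjusted p = 0.0148, limma), and it too was picked after its value was seen.

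**Figure D4:**
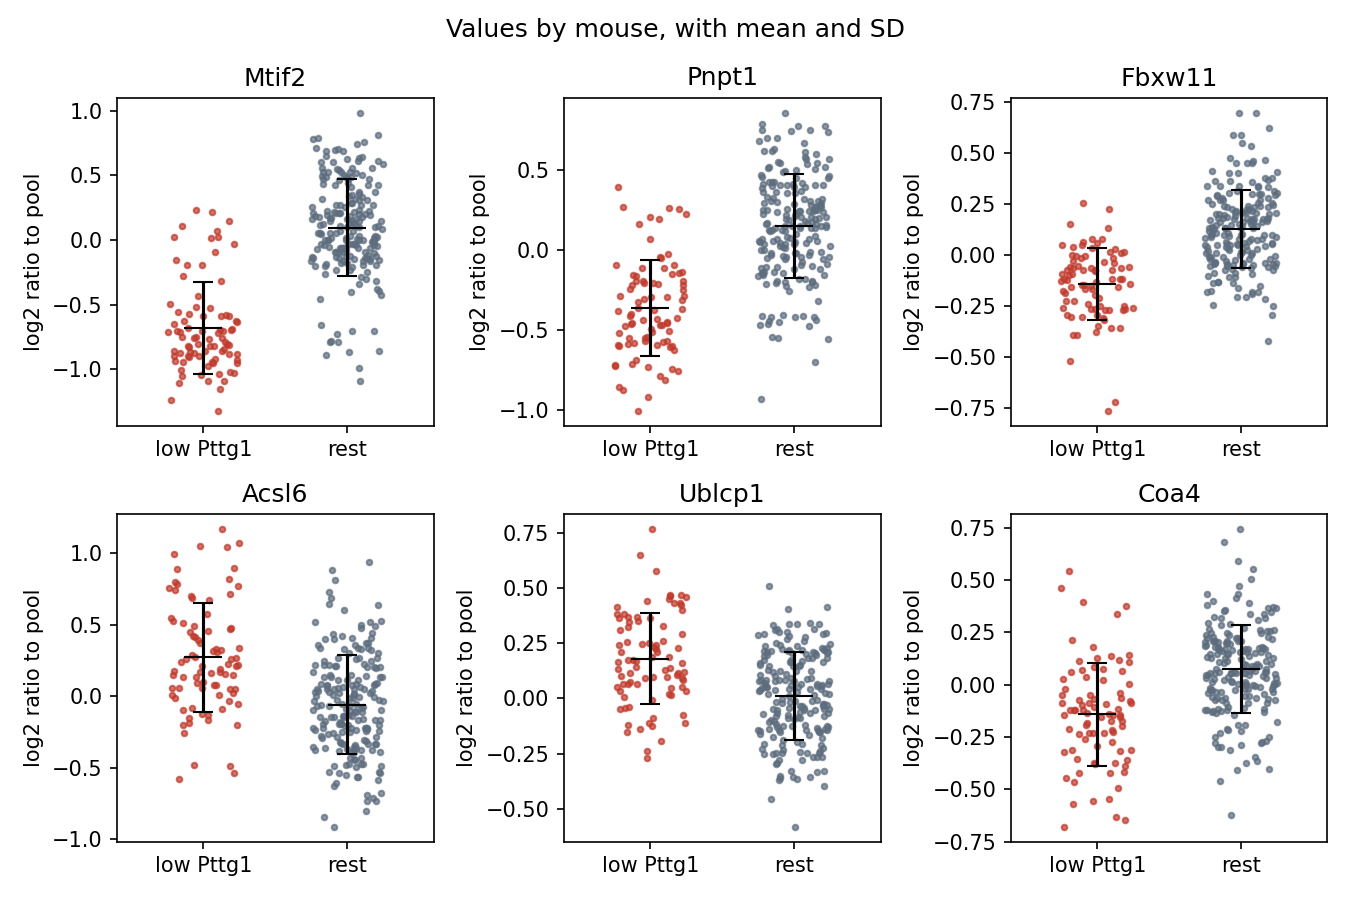
Log2 ratio to the pool (vertical axes) of 6 genes in each low Pttg1 mouse (red, left, n = 85) and each other mouse (grey, right, n = 200), with mean and SD in black; sideways spread has no meaning. Mtif2, Pnpt1, Fbxw11 and Coa4 sit lower in low mice, Acsl6 and Ublcp1 sit higher, and the groups overlap in all 6. Ublcp1 is the mean of 3 probes that disagreed in direction.

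On the higher-coordinate side, calls also went in both directions. Acsl6, a long-chain acyl-CoA synthetase at place 78, had values of -0.58, 0.22 and 1.17 in low mice and -0.92, -0.07 and 0.94 in the rest, and rose by 0.33 ± 0.05 (SE, adjusted p = 5.97e-09, limma), with 70 of 85 low mice above the median of the rest. It was called in the lower-numbered mice (difference 0.44) and not in the higher-numbered ones (0.22, adjusted p = 0.192, limma), while the test of that difference, given below, called no gene. Fam183b at place 105 rose by 0.21 ± 0.03 (adjusted p = 1.25e-08). Lower in low mice were Atpaf2, an assembly factor of mitochondrial ATP synthase at place 123 (-0.20 ± 0.03), and Trim11, a ubiquitin ligase at place 109 (-0.25 ± 0.03). Slc13a5, the sodium-coupled citrate transporter at place 244, fell by 0.29 ± 0.04 (adjusted p = 6.97e-08), and was not called in the lower-numbered mice (-0.21, adjusted p = 0.168, limma). Pitpna, a phosphatidylinositol transfer protein at place 292, fell by 0.23 ± 0.03 as the mean of 2 probes, which differed by 0.01 and -0.48.

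The largest difference on the chromosome was that of Rasd1, a small G protein induced by glucocorticoids at place 118, singled out after its values were seen. It had a lowest value of -2.33, a median of 0.10 and a highest value of 2.47 in low mice, against -2.94, -0.95 and 2.73 in the rest. It was higher in low mice by 0.98 ± 0.15 (SE, adjusted p = 1.92e-07, limma), within wide and overlapping ranges. It was called in the lower-numbered mice (1.18) and not in the higher-numbered ones (0.80, adjusted p = 0.129, limma).

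Within the rest, where the split is constant, the slope of each gene on the Pttg1 value was fitted in the 200 mice. It was called for 489 of 21511 features (2.27%). Of these, 55 were among the 893 genes on chromosome 11 (6.16%) and 183 among the 10026 on other chromosomes. A further 17 were among the 702 genes without a chromosome and 234 among the 9890 unnamed probes. With the first 5 principal components of all features as covariates, 86 features were called. Chromosome 11 then held 37 of them and the other chromosomes 12. The split and the slope share the 200 mice, so their values stand side by side. Mtif2 had a slope of 0.43 log2 units per log2 unit of Pttg1 (adjusted p = 3.08e-11, limma), Pnpt1 0.26 (7.70e-05), Fbxw11 0.10 (0.0434) and Acsl6 -0.39 (9.49e-11). Tns3 and Ogdh had slopes of 0.10 and 0.19 that were not called (adjusted p = 0.361 and 0.0665). With the 5 components both were called (adjusted p = 0.00370 and 1.12e-05, limma). Efemp1 had a slope of -0.06, called neither without nor with the components (adjusted p = 0.633 and 0.728, limma). For Rasd1 the slope was -1.18 (adjusted p = 4.57e-07).

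The levels at the low, middle and high runs of Pttg1 show the same values as averages. Mtif2 averaged -0.68 ± 0.35 in low, -0.04 ± 0.32 in middle and 0.39 ± 0.31 in high mice (SD, n = 85, 137 and 63). Acsl6 averaged 0.27 ± 0.38, 0.04 ± 0.33 and -0.28 ± 0.28 in the same order. Ublcp1, as the mean of its 3 disagreeing probes, stepped the same way as Acsl6, with 0.18 ± 0.21, 0.06 ± 0.19 and -0.10 ± 0.18. In each of the 3 genes the middle run lay between the others, within SDs that overlapped. All 3 were already called for the split and for the slope within the rest, so this order adds no further test.

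**Figure D5:**
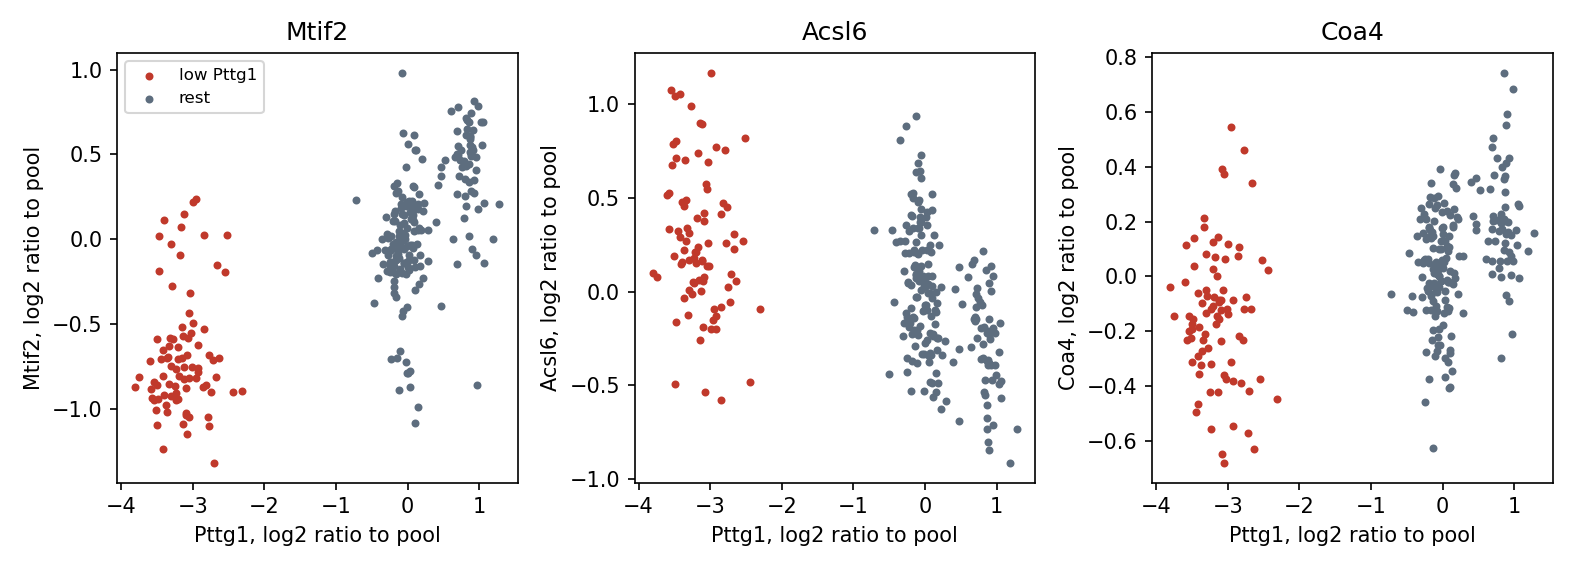
Log2 ratio to the pool of Mtif2, Acsl6 and Coa4 (vertical axes) against that of Pttg1 (horizontal axes), 1 point per mouse, with low mice in red and the rest in grey. Mtif2 and Coa4 are lowest where Pttg1 is lowest and Acsl6 is highest there, with mean log2 values at the low, middle and high runs of -0.68, -0.04 and 0.39 for Mtif2.

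Inside the 85 low mice the same slope was called for 8496 features (39.5%), and for 259 after a spline of the mouse number was fitted. With 5 principal components none was called by limma, while 1656 features (7.70%) had an unadjusted p under 0.05. The count thus depended on whether the mouse number or components common to many genes were fitted, and no gene is named from it.

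Beyond chromosome 11, Coa4 stood out by p among the 9 called genes. It encodes an assembly factor of cytochrome c oxidase and lies on chromosome 7. It had a lowest value of -0.68, a median of -0.14 and a highest value of 0.54 in low mice, against -0.62, 0.07 and 0.74 in the rest, and 70 of 85 low mice lay below the median of the rest. The difference was -0.22 ± 0.03 (SE, adjusted p = 9.28e-10, limma). Averages at the low, middle and high runs of Pttg1 were -0.14 ± 0.25, 0.01 ± 0.19 and 0.21 ± 0.19, and the slope within the rest was 0.18 (adjusted p = 1.69e-05). Coa4 was called in all 22 alternatives tried, between -0.27 and -0.17.

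Of the other 8, 4 were called in 19 or more of the alternatives tried. Tmem150b on chromosome 7 fell by 0.12 (adjusted p = 2.51e-07) and was called in 21 of 21. Gdnf on chromosome 15, a neurotrophic factor, was higher by 0.12 (adjusted p = 3.09e-06) and was called in 21 of 22. Bhlhe23 on chromosome 2, a basic helix-loop-helix factor, fell by 0.11 (adjusted p = 4.20e-05), and Selplg on chromosome 5, the P-selectin ligand of leukocytes, fell by 0.13 (adjusted p = 0.000539, limma). In separate animals, Gdnf was not called in the higher-numbered mice (adjusted p = 0.228), nor Selplg (0.755), and Bhlhe23 was not called in the lower-numbered ones (0.105). Their slopes within the rest had the values 0.09 for Tmem150b, -0.12 for Gdnf, 0.09 for Bhlhe23 and 0.15 for Selplg, each called.

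The remaining 4 were near the threshold and were called in 8 to 12 of 22 alternatives. They were Rab20, a small GTPase on chromosome 8 (-0.11, adjusted p = 0.0186), Lrfn3, a synaptic adhesion protein on chromosome 7 (-0.12, 0.0328), Gramd1b, a sterol transfer protein on chromosome 9 (0.17, 0.0428), and the cytokine receptor kinase Jak2 on chromosome 19 (-0.16, 0.0485). None of these 4 had a called slope within the rest. Rab20 averaged -0.08 in low, 0.03 in middle and 0.00 in high mice, and Jak2 -0.10, 0.07 and 0.05.

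A further 4 called genes of 702 (0.570%) carried a symbol whose identifier is not a mouse gene and so had no chromosome. In low mice CCDC85A fell by 0.55 (adjusted p = 3.98e-21, limma) and FLCN fell by 0.29 (1.06e-07), while CCDC104 was higher by 0.18 (6.49e-05) and TMIGD1 by 0.19 (0.00395). The mouse genes spelled alike, Ccdc85a, Flcn, Cfap36 (synonym Ccdc104) and Tmigd1, all lie on chromosome 11, though that these probes measure them was not tested. The gene Ccdc85a also had a probe of its own, at place -35, and it differed by 0.00 (adjusted p = 0.9995, limma), unlike the probe named CCDC85A. Of the 9890 unnamed probes 35 were called (0.354%), and the 3 with the smallest p differed by -0.50, 0.57 and -0.32.

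The calls were also compared in separate animals. In the 143 lower-numbered mice 76 features were called (0.353%), and in the 142 higher-numbered mice 49 (0.228%). On chromosome 11 the sets held 29 and 23 genes, and 13 were shared in the same direction, 44.8% of the first and 56.5% of the second. On other chromosomes they held 14 and 5 genes and shared 2, or 14.3% and 40%. Coa4 was called in each set, at -0.21 and -0.22, and so was Tmem150b, at -0.11 and -0.12. No feature was called for an interaction of the split with lower or higher mouse numbers (0% of 21511, limma). Of these features 2095 (9.74%) had an unadjusted p under 0.05, and the smallest adjusted p was 0.215. For the interaction with Eif2s3y class the share called was again 0%, with 1696 (7.88%) unadjusted and a smallest adjusted p of 0.264 (limma). Ranks gave 0 calls for both.

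No listed gene that acts with securin was called, and at the overall share of 0.432% lists of this size would hold fewer than 1 call. The list of securin partners, separase and cohesin had 8 measured genes with a median difference of -0.01 and no call, beside a median of 0.00 over all features. Espl1, which encodes separase, had a difference of -0.01 ± 0.02, with values of -0.30, -0.01 and 0.70 in low mice and -0.40, -0.01 and 0.71 in the rest. The cohesin subunit genes Smc1a and Smc3 differed by 0.04 ± 0.03 and 0.00 ± 0.03. Among 13 genes of the anaphase promoting complex and spindle checkpoint the median was 0.01, from -0.02 for Bub1b to 0.10 for Anapc1, and Cdc20, the activator that leads the complex to securin, had 0.01 ± 0.02. Of 31 cell division genes none was called and the median was 0.01, with 0.00 ± 0.04 for the proliferation marker Mki67 and 0.01 ± 0.02 for Cdk1.

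Genes reported as partners or targets of Pttg1 were likewise without a call. The 9 measured had no call and a median of -0.01, with 0.01 ± 0.07 for Myc and -0.01 ± 0.02 for the growth factor gene Fgf2. The 14 measured genes of the p53 response had no call and a median of 0.02, and Cdkn1a, which encodes the cell cycle inhibitor p21, had 0.06 ± 0.09. The errors given for single genes of these lists ran from 0.02 to 0.09. No intensities were used, so whether these genes read above background in muscle is unknown. A small error therefore does not show a well-measured level, and a p above the threshold does not show that a level was the same.

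No member of any of the 27 gene lists examined was called. At the share of 0.432% among all features, each list would hold fewer than 1 call. The 10 measured slow fibre genes had the highest list median, 0.30, and 9 of them had an unadjusted p under 0.05, beside 1276 of all 21511 features (5.93%), with a smallest adjusted p of 0.323 (limma). Their mean level ran from -2.49 through a median of 0.03 to 0.84 in low mice and from -2.73 through -0.20 to 1.04 in the rest. Tnnt1, slow troponin T, had the largest value, 0.54 ± 0.20, and the median of the list was 0.07, with no unadjusted p under 0.05, once a spline of the mouse number was fitted. The 9 hepatocyte genes had a median of 0.18, 0.08 without outlying arrays, and -0.04 in mice with high Eif2s3y and 0.45 in those with low Eif2s3y. Of the 9, 5 had an unadjusted p under 0.05, and 1 did without outlying arrays. Their mean level ran from -1.17 through -0.39 to 4.63 in low mice and from -1.22 through -0.48 to 2.78 in the rest. Of the 3 Y-linked genes in the sex chromosome list, Eif2s3y had the largest value, -0.90 ± 0.38, and the median was -0.42.

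The other 19 lists covered fast fibres, oxidative phosphorylation, fatty acid metabolism, satellite cells, matrix, tendon, macrophages, lymphocytes, MHC class II, interferon response, white and brown fat, red cells, skin, endothelium, Schwann cells, smooth muscle, heat shock and immediate early genes. Their medians lay between -0.07 for tendon and 0.03 for keratinocytes, and 5 of their 170 measured members (2.94%) had an unadjusted p under 0.05, against 5.93% of all features. The tendon median was -0.32 in the lower-numbered mice, where 3 of 8 members had an unadjusted p under 0.05, and 0.08 in the higher-numbered ones. Single members ranged from -0.19 for Ucp1 of brown fat to 0.15 for Car3 of white fat.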

How the data were processed

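The data are 285 two-channel arrays of mouse muscle RNA against a pool. The authors deposited 1 value per probe and array, read here as a log10 ratio of mouse over pool. Whether and how the values were normalised, and their base and sign, are not given in the sources used here. The sign was kept because the mean linear ratio to the pool, which should lie near 1, was 0.796 for the Y-linked Eif2s3y and 23.2 with the sign turned. Were the base 2, differences would be smaller by a constant factor and tests would stay.

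The table has 23560 probes, and the 23510 measured on 80% or more of the arrays were kept. Missing values (0.00181%) were set to the probe mean. Of all probes 13653 had 1 gene symbol, 48 several and 9859 none. Symbols were updated by Entrez identifier for 12650, and probes of a gene were averaged, giving 21512 features, of which 10920 genes had a chromosome in RefSeq (GRCm38.p6). On the deposited scale, array medians lay between -0.0222 and 0.0173. There, 471 values stood at the upper bound of 2, a ratio of 100-fold, and 178 at the matching lower bound. The number of arrays limits the precision, since no intensities were used.

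Pttg1 was left out of the tests. Differences and slopes were fitted on log2 values with lmFit and eBayes in limma 3.58.1 (R 4.3.3), with Benjamini-Hochberg adjustment over 21511 features and a threshold of 0.05. Scripts were tested on simulated data. Shares were compared with Fisher's exact test and means with 100000 shuffles (scipy 1.17.1). Named genes were the 12 with the smallest p on chromosome 11 and on other chromosomes among called genes, the 10 nearest measured genes on each side of Pttg1, called list members and the 3 leading unnamed probes. The split, gene lists, rules and alternatives were chosen with earlier results of these data known. Sex was not in the labels, and the Eif2s3y class, formed from Eif2s3y and Kdm5d together, stood in for it as a covariate.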

Additional observations from a re-analysis of the deposited data

How the results depend on the processing

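All p-values treat littermates and the other mice alike as independent, since families are not given, and the files hold no intensities, so signal over background is unknown. No paired analysis was possible because the labels put all mice in 1 group. The files name no genome build, so places along chromosome 11 are given as gene order in RefSeq. For single named genes, the 30 called ones kept their sign in all 656 alternative values and lost the call in 66, while the 18 that were not called turned sign in 44 of 387 and gained a call in 1. With the probe of largest SD in place of the mean of probes, 1 of the 93 called features changed sign. Other single probes were not among the alternatives. Of these, 1 probe of Ublcp1 (-0.14) and 1 of Pitpna (0.01) differed in sign from the mean of the gene.

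Of the 93 calls, 83 were made again with Eif2s3y class as covariate, 88 without outlying arrays, 87 with 5 principal components and 68 outside mouse numbers 51 to 90 and 271 to 310, each in the same direction. The total count moved to 180 with 5 principal components, 149 with the Pttg1 value in place of the split, 49 in the higher-numbered mice, 46 in mice with low Eif2s3y alone and 60 with unnamed probes left out. The settings by Eif2s3y class alone and without unnamed probes were chosen after seeing the data. On chromosome 11 the count of 45 became 69 with 5 principal components, 29 in lower-numbered and 23 in higher-numbered mice, 26 in mice with high Eif2s3y and 25 in mice with low Eif2s3y. On other chromosomes the count of 9 became 15 with a spline of the mouse number, 15 with that spline and Eif2s3y class, 17 with 1 principal component, 33 with 5, 14 in lower-numbered and 5 in higher-numbered mice, 20 with the Pttg1 value and 4 in mice with low Eif2s3y. Some settings used fewer mice or features, yet on other chromosomes the lower-numbered mice alone had 14 calls against 9 in all mice. Why the counts moved was not tested.

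Slopes on Pttg1 within the rest numbered 489, but 80 with a spline of the mouse number, 86 with 5 principal components, 90 with Eif2s3y class added to these (chosen after seeing the data) and 133 without outlying arrays. Within low mice they numbered 8496, but 259 with the spline and 0 with 5 principal components (limma, 1656 at an unadjusted p under 0.05). The interactions had 0 calls in limma in every alternative run.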
